A study of Mus musculus with 6 samples.

Results

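The genes described here are the growth factor early response genes and the feedback genes of the ERK pathway in mouse hippocampal neurospheres, the free-floating clusters that neural stem cells form in culture. A list of 40 gene symbols was matched to the deposited expression table, and 38 were found among its 14327 genes. Of these, 27 are early genes, whose transcripts appear within minutes of a stimulus, and 11 are feedback genes, whose transcripts follow sustained ERK activity. The list had 29 early and 11 feedback names. Cyr61 and Ctgf, the other 2 early names, are carried in the table as Ccn1 and Ccn2 and are given apart.

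RNA had been sequenced from 3 libraries of neurospheres grown from wild-type (WT) mice and 3 carrying the label cKO, for conditional knockout of Slc22a17, a cell surface receptor for lipocalin 2. All cultures came from the hippocampus at postnatal day 0 and were kept in medium with B27, N2, EGF and bFGF. Which Cre driver or strain was used, and how many animals went into a culture, is not given in the labels. Separate cultures are not stated either. The p-values therefore cover the spread among these libraries, which may be technical.

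EGF and bFGF activate receptor tyrosine kinases, which signal through Ras, Raf and MEK to the kinase ERK. ERK and its partner kinases act on transcription factors already present in the cell, such as the serum response factor complex and CREB, and so switch on early genes without new protein synthesis. Many early transcripts are also unstable, and dissociation or handling of cells can induce them. Feedback genes then hold the pathway back: DUSP phosphatases remove phosphate from ERK, Sprouty and Spred proteins block signalling between receptor and Raf, and the PEA3 group of ETS factors (Etv1, Etv4, Etv5) reads out FGF signalling in neural progenitors.

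The labels were checked on Slc22a17 first. Its WT values, in the order of replicates 1 to 3, were 181, 169 and 204 FPKM, against 164, 166 and 187 FPKM under the cKO label. FPKM is a fragment count scaled to transcript length and library total. The groups overlapped, with a difference of -0.097 on the log2 scale (SE 0.086, adjusted p = 0.707 in limma) and a two-sided exact permutation p of 0.5. A comparison of 3 with 3 cannot go below a p of 0.1. The transcript was therefore not lost at the gene level, the deleted part is not given in the labels, and every direction below is between WT and the libraries labelled cKO.

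One more feature separates the libraries. The Y-linked genes Ddx3y and Eif2s3y summed to 0.10 FPKM in WT replicate 1, 0.07 FPKM in replicate 2 and 25.9 FPKM in replicate 3, against 43.8 to 51.2 FPKM under the cKO label. The Y-linked level moved with the group, and apart from the intermediate WT replicate 3 they cannot be told apart. The 9 markers of neural stem and progenitor cells (such as Nes, Sox2 and Fabp7) were all above the filter. They summed to 3900 to 4099 FPKM in WT, against 3602 to 3909 FPKM under the cKO label. Most of each sum was Fabp7 and Vim, which averaged 1994 and 1041 FPKM over all libraries, against 97.8 FPKM for Nes.

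Markers shared with the glial lineages were abundant: the 6 astrocyte markers summed to 2649 to 3671 FPKM in WT, against 3215 to 3450 FPKM under the cKO label, and the 7 oligodendrocyte lineage markers to 1239 to 1707 FPKM, against 1194 to 1454 FPKM. Markers of the remaining cell types were low. The 5 mural and fibroblast markers in the table, of 8 listed, summed to 11.5 to 11.7 FPKM in WT, against 11.3 to 15.1 FPKM under the cKO label. Nearly all of it was Cspg4, at 11.65 FPKM in cKO replicate 1, and Pdgfrb, while Rgs5, Col1a1 and Col1a2 did not exceed 0.21 FPKM. The 8 microglial markers summed to 17.8 to 18.7 FPKM in WT, against 9.47 to 24.9 FPKM under the cKO label, with overlapping groups. Of 6 neuronal markers, all in the table, the sum was 5.19 to 5.88 FPKM in WT, against 6.77 to 7.25 FPKM under the cKO label, most of it Tubb3, while Syt1 did not exceed 0.17 FPKM. Of 6 endothelial markers, 3 were in the table and summed to 1.00 to 1.62 FPKM in WT, against 0.62 to 0.96 FPKM under the cKO label, nearly all of it Flt1, while Kdr and Tek did not exceed 0.08 FPKM. Single glial markers moved with the group where the sums, mostly Gfap and Olig1, did not. Gjb6, an astrocyte connexin, had means of 13.6 FPKM in WT and 22.5 FPKM under the cKO label without overlap (adjusted p = 0.103 in limma), and S100b 6.13 and 8.36 FPKM with overlap. The myelin genes went the other way, Mog at 2.80 and 1.79 FPKM without overlap (adjusted p = 0.297 in limma) and Mbp at 60.7 and 38.8 FPKM with overlap. Of the 6 astrocyte markers 4 had higher means under the cKO label and 2 lower. Those lower were Aqp4 (176 and 161 FPKM) and Aldh1l1 (323 and 316 FPKM). Of the 7 oligodendrocyte lineage markers 6 had lower means, and Pdgfra was higher at 7.70 and 9.28 FPKM. Gjb6, Mog and the neuronal and endothelial sums did not overlap between the groups. The part of these markers in the results below was not tested. Where a transcript is lower in bulk RNA, fewer cells of a type and less RNA per cell cannot be told apart.

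The promoters of several members show what kinds of sites these genes carry. Shown are the bases just before the annotated start (RefSeq, GRCm38.p6, 5′ to 3′ on the gene's strand) for 4 early genes whose values were lower under the cKO label and for 2 feedback genes. Capitals mark matches on either strand to the motifs searched: the CArG box, which serum response factor binds, TGACGTCA and its shorter form TGACG, which CREB and its relatives bind, TGANTCA for AP-1, GCGNGGGCG for EGR proteins and CCGGAA for ETS proteins. A TGACGTCA match holds a TGACG match on each strand.
Fos, chr12:85473750-85473889, plus strand: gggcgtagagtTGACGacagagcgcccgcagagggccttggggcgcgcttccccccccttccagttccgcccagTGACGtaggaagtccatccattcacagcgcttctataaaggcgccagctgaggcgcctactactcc
Junb, chr8:84978749-84978868, minus strand: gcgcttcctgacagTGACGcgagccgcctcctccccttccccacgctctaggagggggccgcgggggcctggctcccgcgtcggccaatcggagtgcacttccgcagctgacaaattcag
Dusp1, chr17:26508473-26508632, minus strand: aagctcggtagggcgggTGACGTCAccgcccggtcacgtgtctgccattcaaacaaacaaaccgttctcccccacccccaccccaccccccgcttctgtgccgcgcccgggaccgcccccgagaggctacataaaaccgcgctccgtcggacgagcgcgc
Zfp36, chr7:28379229-28379348, minus strand: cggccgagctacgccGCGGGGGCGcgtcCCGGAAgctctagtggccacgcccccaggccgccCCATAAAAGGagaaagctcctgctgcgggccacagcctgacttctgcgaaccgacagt
Dusp5, chr19:53529025-53529144, plus strand: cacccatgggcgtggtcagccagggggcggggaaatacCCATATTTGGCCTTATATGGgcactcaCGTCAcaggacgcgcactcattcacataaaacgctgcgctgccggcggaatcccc
Dusp6, chr10:99263111-99263230, plus strand: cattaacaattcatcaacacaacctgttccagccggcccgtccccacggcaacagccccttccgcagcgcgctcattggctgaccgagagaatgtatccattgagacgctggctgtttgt
Fos carries TGACG at 2 places, Junb at 1, and Dusp1 the full TGACGTCA. Zfp36 carries a CArG box beside EGR and ETS matches, Dusp5 carries 2 adjacent CArG boxes, and Dusp6 has no match in the stretch shown.

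Over the 250 bases before the start, promoters were matched for 21 early and 8 feedback members. None was available for the early genes Egr1, Egr3, Fosl1, Ier2, Klf10 and Myc or the feedback genes Dusp4, Spry4 and Etv4. Bases further upstream were not searched. TGACG was present for 12 of the 21 early genes and for 2 of the 8 feedback genes, Dusp5 and Spred2, against 31.4% of the 9386 tested genes with a promoter in the table. GCGNGGGCG was present for 9 early genes and 0 feedback genes, against 11.1% of tested genes. A CArG box was found for Egr2 and Zfp36 among the early genes and for Dusp5 among the feedback genes, against 1.31%. TGACGTCA was found for Btg2, Dusp1 and Maff (3.22% of tested genes), TGANTCA for Csrnp1 and Zfp36l1 (5.06%), and CCGGAA for Egr2, Nr4a1 and Zfp36 (26.2%). Some genes have several annotated starts, and a gene counts once where any of its windows holds the motif. A match is a description of the letters and not a bound site.

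Early genes were short and the feedback genes mixed in length. In RefSeq the early genes spanned a median of 5021 bases, the feedback genes 15100 bases and all tested genes 24670 bases. In GENCODE M21 their medians were 3, 4 and 9 exons in the same order. Jun, Junb, Jund, Ier2 and Ier5 have a single exon. Spred1, Spred2, Etv1 and Etv5 are longer than the median of all tested genes, with Spred2 the longest at 99585 bases, and Etv1, Etv4 and Etv5 have 13 exons each. The letters TATTTAT, an AU-rich motif found in unstable transcripts, occurred in the 3′ UTR of 17 of 27 early genes (63.0%), 7 of 11 feedback genes (63.6%) and 27.6% of all tested genes. The density of ATTTA had medians of 2.53 per kilobase in early genes, 1.91 in feedback genes and 1.24 in all tested genes.

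Most early genes had lower means under the cKO label, down to a difference of -1.16 on the log2 scale for Fos, while feedback genes ran from -0.33 to 0.12. No member passed the test. With the Y-linked level as a covariate the medians of the early and feedback genes were -0.038 and -0.31, the reverse order. That adjustment rests mostly on WT replicate 3. Testing used limma on log2(FPKM + 1) and kept genes averaging 1 FPKM or more across the libraries, which took 21 early and all 11 feedback genes among 11596. No member passed an adjusted p of 0.05, which 0.0259% of tested genes did (0.0172% with the lower value under the cKO label). At an unadjusted p under 0.05, 12 of 21 early genes were lower and 0 were higher, against 7.82% and 4.44% of tested genes. None of the 11 feedback genes reached that level. The median difference was -0.34 on the log2 scale for early genes, -0.028 for feedback genes and -0.015 for all tested genes, and on this scale 20 of 21 early and 9 of 11 feedback genes were lower, as were 55.5% of all tested genes. Without the filter, the 27 early genes had a median of -0.29, with 24 lower means, 2 higher and 1 equal in FPKM.

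**Figure D1:**
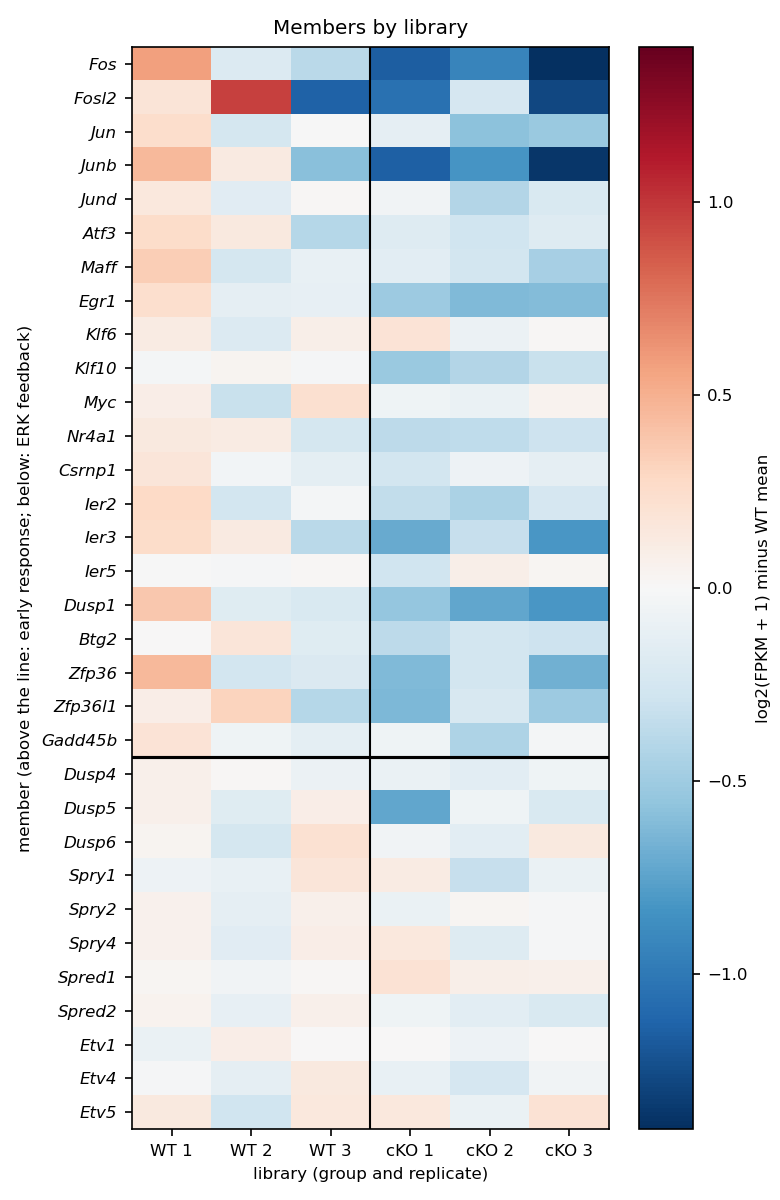
Each row is a tested member and each column a library; colour gives log2(FPKM + 1) minus the WT mean of that gene. Early genes (above the line) are mostly below the WT mean in the 3 libraries labelled cKO and highest in WT replicate 1, while feedback genes (below the line) stay near 0.

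The libraries did not fall into 2 even groups. Averaged over the 21 tested early genes, WT replicates 1 to 3 stood at 0.22, -0.013 and -0.20 relative to the WT mean on the log2 scale, and the libraries labelled cKO at -0.42, -0.37 and -0.48. WT replicate 3, with its intermediate Y-linked level, was therefore the WT library nearest to those labelled cKO. It was the lowest WT library for 11 of 21 early genes (52.4%, against 35.3% of all tested genes). It was nevertheless above every library labelled cKO for 13 of 21 early genes, against 27.3% of tested genes. The same held for 6 of the 11 feedback genes, so this was not particular to the early genes. For the feedback genes the library means were 0.032, -0.12 and 0.084 in WT and -0.046, -0.12 and -0.021 under the cKO label, so the groups overlapped.

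WT replicate 1 held the highest value for 17 of the 27 early genes (63.0%, against 11.6% of all genes), and WT replicate 2 for 6 (22.2%, against 27.4%). Among the feedback genes WT replicate 3 was the highest for 6 of 11 (54.5%, against 13.96% of all genes). WT replicate 2 and cKO replicate 2 were each the lowest for 4 of the 11, and for 2668 and 2831 of all 14327 genes.

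For 8 early genes the groups did not overlap, with every value under the cKO label below every WT value, which held for 10.2% of tested genes and 9.27% of all genes in the table. They were Fos, Junb, Egr1, Klf10, Nr4a1, Dusp1, Btg2 and Zfp36. Of the feedback genes only Spred1 had groups that did not overlap, with the higher values under the cKO label, as did 7.07% of tested genes and 6.42% of all genes in the table.

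**Figure D2:**
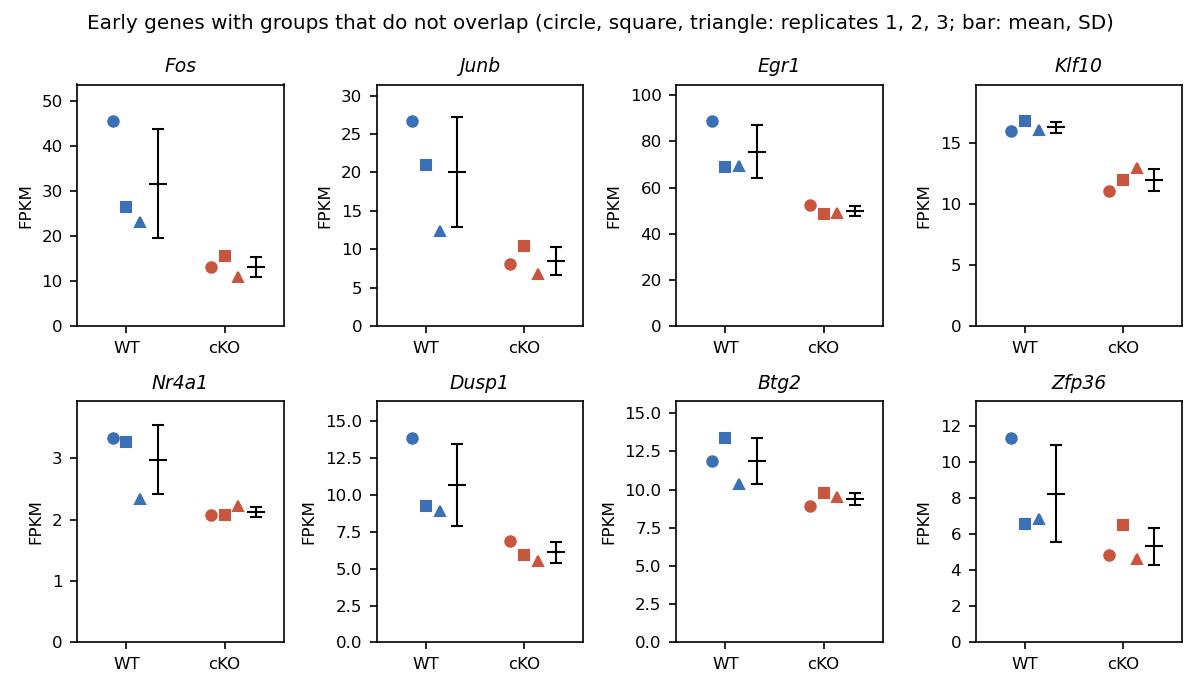
FPKM in each library for the 8 early genes without overlap (circle, square and triangle are replicates 1, 2 and 3; the black bar is the mean with SD, n = 3). Fos ranges from 23.0 to 45.5 FPKM in WT and from 10.9 to 15.5 FPKM under the cKO label.

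Among the AP-1 factors, which pair a FOS with a JUN protein through leucine zippers, Fos and Junb had the largest differences with groups that did not overlap. Fos (chromosome 12, 85473890 to 85477274), the classic early gene, had WT values of 45.5, 26.4 and 23.0 FPKM, against 13.1, 15.5 and 10.9 FPKM under the cKO label. WT replicate 1 was well above the rest, but the lowest WT value was still above the highest of the other group. The means were 31.7 ± 12.1 and 13.1 ± 2.29 FPKM (SD, n = 3 each), a difference of -1.16 on the log2 scale (SE 0.23, adjusted p = 0.176 in limma) and the third lowest of all 11596 genes tested. Junb (chromosome 8, 84976909 to 84978748), a JUN protein that often restrains growth, had WT values of 26.7, 21.0 and 12.4 FPKM, against 8.12, 10.4 and 6.81 FPKM under the cKO label. Its WT libraries spread over more than the gap between the groups. The difference was -1.11 (SE 0.25, adjusted p = 0.194 in limma), the fifth lowest.

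The more abundant JUN genes differed less. Jun, which codes for the main partner of FOS, had WT values of 50.1, 35.5 and 42.1 FPKM, against 38.5, 28.1 and 29.2 FPKM under the cKO label. Here cKO replicate 1 lay above WT replicate 2, and the difference was -0.40 (SE 0.14, adjusted p = 0.319 in limma). Jund, the JUN protein least dependent on stimulation, had WT values of 47.6, 38.3 and 43.3 FPKM, against 41.5, 32.01 and 36.8 FPKM under the cKO label, again with overlap (difference -0.22, adjusted p = 0.446 in limma). In both JUN genes the second replicate was the lowest of its group.

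Fosl2, which codes for the longer-lived FOS protein FRA2, had its highest value in WT replicate 2. It had WT values of 10.5, 18.6 and 3.60 FPKM, against 3.90, 7.56 and 3.18 FPKM under the cKO label. WT replicate 3 was at the level of cKO replicates 1 and 3, and replicate 2 was the highest of each group (difference -0.85, SE 0.48, adjusted p = 0.509 in limma). Maff, a small MAF protein, averaged 1.98 and 1.41 FPKM, and Atf3, a stress-induced relative of the AP-1 factors, averaged 1.62 and 1.22 FPKM, both with overlap. Fosb and Fosl1 were under the filter. Fosb was at 1.38 FPKM in WT replicate 1 and at 0.38 to 0.57 FPKM in the other libraries, and Fosl1 was at 0.21 to 0.52 FPKM.

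Among the other early transcription factors Egr1 and Klf10 had the smallest p-values of all members. Egr1 (chromosome 18, 34861207 to 34864956), a zinc finger factor and a direct target of serum response factor, had WT values of 88.7, 69.0 and 69.2 FPKM. Under the cKO label it had 52.6, 48.8 and 48.8 FPKM, a narrower spread than in WT. The means were 75.6 ± 11.3 and 50.0 ± 2.18 FPKM (SD, n = 3 each), with a difference of -0.58 (SE 0.098, adjusted p = 0.126 in limma). Egr1 was the most abundant early gene per length.

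Klf10 (chromosome 15, 38291464 to 38300711), a repressor that TGF-beta also induces, had the tightest groups. It had WT values of 16.0, 16.8 and 16.1 FPKM, against 11.1, 11.96 and 12.9 FPKM under the cKO label (difference -0.41, SE 0.069, adjusted p = 0.126 in limma). Unlike Fos, it had no high value in WT replicate 1. Nr4a1, an orphan nuclear receptor, had WT values of 3.33, 3.26 and 2.33 FPKM, against 2.07, 2.08 and 2.22 FPKM under the cKO label, with WT replicate 3 just above the other group (difference -0.34, adjusted p = 0.308 in limma).

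Myc and Klf6 had the differences nearest to 0 among the tested early genes. Myc, the growth regulator, had WT values of 20.1, 14.9 and 22.2 FPKM, against 17.9, 17.6 and 19.5 FPKM under the cKO label. The difference of -0.034 had a 95% interval from -0.32 to 0.26, or 0.80 to 1.19 as a ratio of FPKM + 1. Klf6 averaged 10.7 and 11.04 FPKM and was the only tested early gene with a positive difference (0.044, 95% interval -0.19 to 0.28). Csrnp1, a nuclear factor induced by AXIN, averaged 3.45 and 2.99 FPKM. Egr2, Egr3, Klf2 and Klf4 were under the filter, at 0.40 to 0.99, 0.15 to 0.46, 0.10 to 0.23 and 0.46 to 1.37 FPKM, with overlapping groups.

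Among the early inhibitors, the Ier genes and Gadd45b, 3 of 8 had groups that did not overlap, and none passed. With the Y-linked covariate Btg2, Zfp36, Zfp36l1 and Ier3 turned positive. Dusp1 (chromosome 17, 26505591 to 26508472), a nuclear phosphatase of MAP kinases and itself an early gene, had WT values of 13.9, 9.25 and 8.95 FPKM, against 6.89, 5.93 and 5.51 FPKM under the cKO label. The groups did not overlap, and WT replicate 1 was the highest (difference -0.70, SE 0.15, adjusted p = 0.194 in limma). Ier3, a short regulator of survival and ERK dephosphorylation, had WT values of 19.7, 17.9 and 12.4 FPKM, against 9.64, 12.9 and 8.84 FPKM under the cKO label. There cKO replicate 2 was above WT replicate 3 (difference -0.62, SE 0.18, adjusted p = 0.244 in limma).

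Btg2, an antiproliferative protein that recruits mRNA deadenylases and marks neurogenic divisions, had WT values of 11.9, 13.4 and 10.4 FPKM, against 8.93, 9.74 and 9.49 FPKM under the cKO label (difference -0.31, SE 0.091, adjusted p = 0.257 in limma). The groups did not overlap. Zfp36, whose protein tristetraprolin binds AU-rich elements and speeds the decay of transcripts, had WT values of 11.3, 6.54 and 6.82 FPKM, against 4.85, 6.51 and 4.64 FPKM under the cKO label. WT replicate 2 was just above cKO replicate 2, so the groups were only narrowly apart. Zfp36l1, its more abundant relative, had WT values of 61.0, 70.9 and 43.0 FPKM, against 36.7, 48.8 and 39.9 FPKM under the cKO label (difference -0.45, adjusted p = 0.348 in limma). As in Fosl2, WT replicate 2 was the highest and WT replicate 3 lay among the libraries labelled cKO.

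Ier2 averaged 14.2 ± 2.83 and 10.9 ± 0.86 FPKM (difference -0.34, adjusted p = 0.334 in limma). Ier5 was nearly level at 14.6 ± 0.19 and 14.1 ± 1.96 FPKM, and Gadd45b, a stress-induced growth arrest gene, averaged 1.57 and 1.28 FPKM. All 8 genes of this list had lower means. Of the secreted matrix proteins, Ccn1 (Cyr61) had WT values of 12.8, 11.2 and 7.14 FPKM, against 5.50, 8.60 and 7.13 FPKM under the cKO label (difference -0.48, SE 0.20, adjusted p = 0.395 in limma). Ccn2 (Ctgf) was at 0.09 to 0.31 FPKM throughout.

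**Figure D3:**
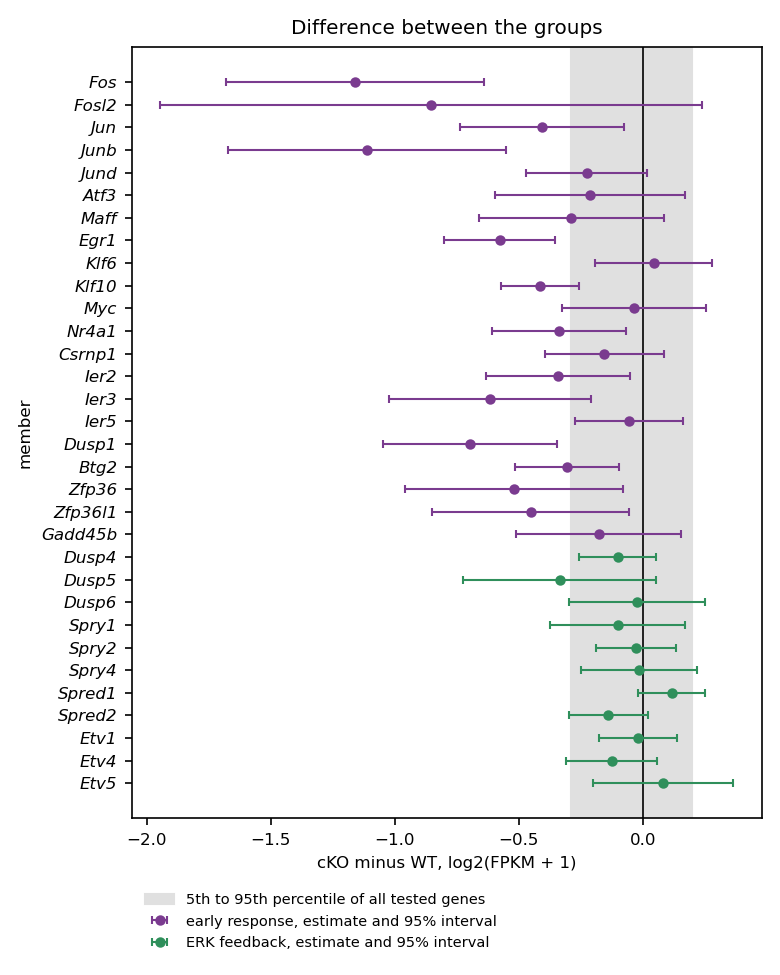
Points give the difference between the groups (libraries labelled cKO minus WT, log2(FPKM + 1)) for each tested member with its 95% interval from limma; the grey band runs from the 5th to the 95th percentile of all tested genes (-0.29 to 0.20). Of the feedback genes only Dusp5, at -0.33, lies outside the band, while the early genes extend to -1.16.

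Values of the feedback genes overlapped between the groups except for Spred1, at levels from 1.39 FPKM for Dusp5 to 112 FPKM for Spry2. Of the ERK phosphatases, Dusp6, the cytoplasmic phosphatase most closely tied to FGF signalling, had WT values of 56.6, 46.4 and 64.4 FPKM, against 53.4, 49.7 and 61.0 FPKM under the cKO label. The order of replicates was the same in both groups, and the difference was -0.021 (SE 0.12, adjusted p = 0.967 in limma). Its interval from -0.29 to 0.25 corresponds to 0.815 to 1.19 as a ratio of FPKM + 1. Dusp4, a nuclear phosphatase, had WT values of 11.1, 10.6 and 9.84 FPKM, against 9.80, 9.41 and 10 FPKM under the cKO label (difference -0.10, adjusted p = 0.599 in limma).

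Dusp5, a nuclear ERK phosphatase, was the feedback gene with the lowest ratio. It had WT values of 3.16, 2.51 and 3.23 FPKM, against 1.39, 2.78 and 2.41 FPKM under the cKO label. Its low mean came mostly from cKO replicate 1, and cKO replicate 2 was above WT replicate 2 (difference -0.33, SE 0.17, adjusted p = 0.472 in limma).

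Sprouty and Spred genes spanned small differences of either sign. Spry2, the most abundant of all members per length, had WT values of 112, 98.2 and 112 FPKM, against 101, 109 and 106 FPKM under the cKO label. All libraries thus lay within 98.2 to 112 FPKM, and the 95% interval of the difference was -0.19 to 0.13. Spry1 had WT values of 14.7, 14.3 and 17.5 FPKM, against 16.8, 12.1 and 14.5 FPKM under the cKO label (difference -0.10, adjusted p = 0.796 in limma). Spry4 averaged 16.8 ± 1.69 and 16.6 ± 2.03 FPKM. Spred1 had WT values of 37.6, 35.6 and 37.2 FPKM, against 42.3, 38.9 and 38.7 FPKM under the cKO label (difference 0.12, SE 0.058, adjusted p = 0.466 in limma). Its paralogue Spred2 went the other way, at 33.1, 29.6 and 33.7 FPKM in WT and 30.7, 28.9 and 27.6 FPKM under the cKO label (difference -0.14, SE 0.069, adjusted p = 0.466 in limma).

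**Figure D4:**
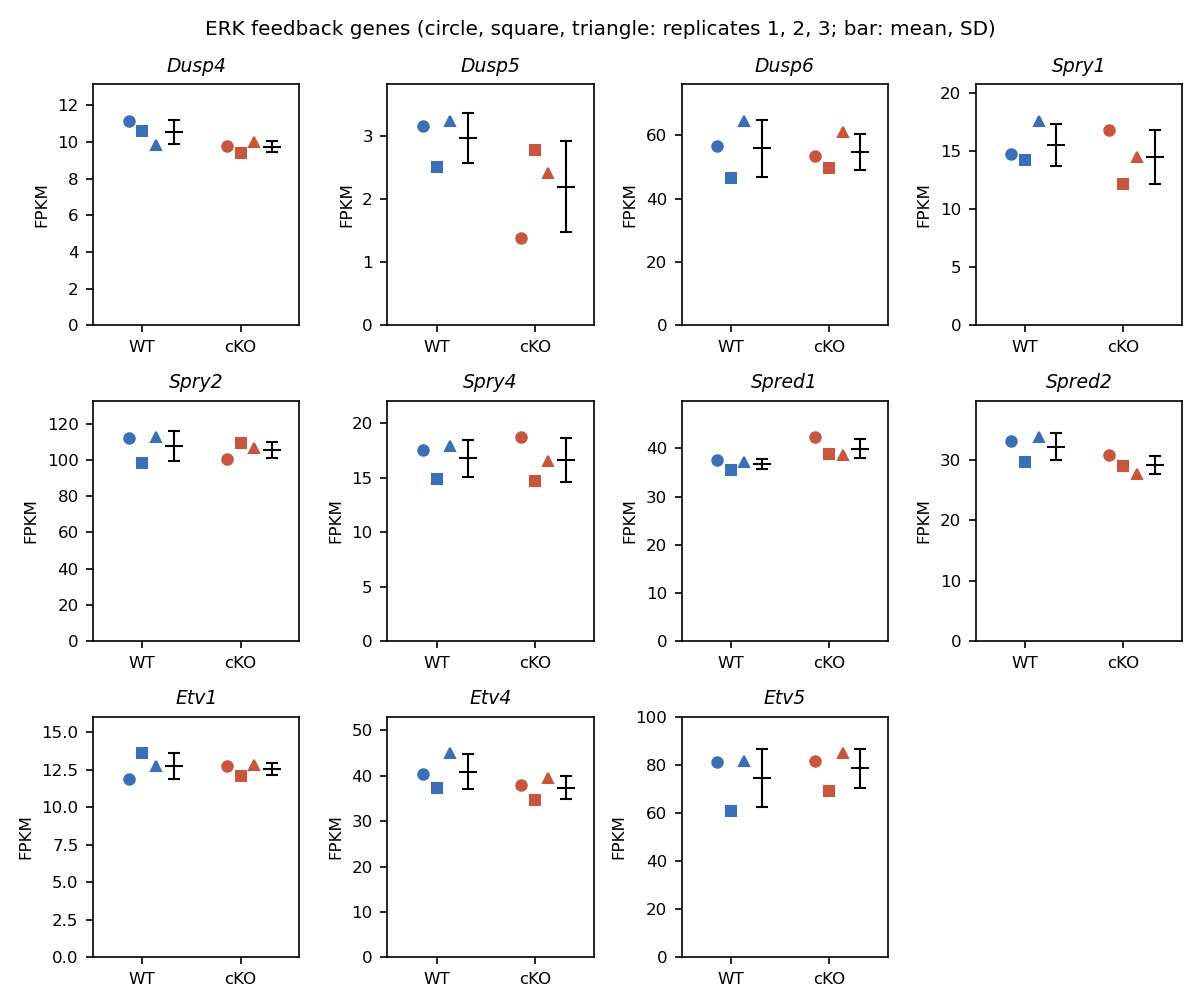
FPKM in each library for the 11 feedback genes (circle, square and triangle are replicates 1, 2 and 3; the black bar is the mean with SD, n = 3). Values of the groups overlap except for Spred1; Spry2 stays between 98.2 and 112 FPKM, and Dusp5 has a low value of 1.39 FPKM in cKO replicate 1.

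Among the PEA3 factors, 2 had lower means and 1 a higher mean. Etv5, the most abundant of them, had WT values of 81.2, 60.7 and 81.7 FPKM, against 81.7, 69.4 and 84.9 FPKM under the cKO label, and the second replicate was the lowest of each group (difference 0.084, SE 0.12, adjusted p = 0.836 in limma). Etv4 had WT values of 40.4, 37.4 and 44.9 FPKM, against 38.0, 34.6 and 39.5 FPKM under the cKO label (difference -0.12, SE 0.080, adjusted p = 0.577 in limma). Etv1 had WT values of 11.9, 13.6 and 12.7 FPKM, against 12.8, 12.1 and 12.8 FPKM under the cKO label, with a 95% interval of the difference of -0.18 to 0.14.

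The split between early and feedback genes depended on how the Y-linked level was treated. Against WT replicate 3 alone, whose spread is assumed to equal that of the other group, the early median was -0.24 with 19 of 21 lower, and the feedback median was -0.11 with 10 of 11 lower. Fos was then at -0.78 and Egr1 at -0.46, while Fosl2 turned to 0.28 and Atf3 to 0.18. With the Y-linked share added to the model as a covariate the early median was -0.038 with 12 of 21 lower, and the feedback median was -0.31 with 9 of 11 lower. In that fit Fos stood at -0.20, Egr1 at -0.35 and Klf10 at -0.39, Junb turned to 0.33, Ier3 to 0.38 and Fosl2 to 1.96, and Dusp6 reached -0.57, none past the threshold (adjusted p = 0.974 for Fos and 0.921 for Dusp6 in limma). Fewer residual degrees of freedom remain in that fit, and its standard error for Fos was 0.44. As a percentage of the mean under the cKO label, the Y-linked sum was 0.21, 0.14 and 53.35 in WT replicates 1 to 3. Under the cKO label it was 90.3 to 105.6. The slope of the covariate therefore rests mostly on WT replicate 3, and no WT library reaches the level under the cKO label.

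With weights estimated per library, 5 early genes passed the threshold: Fos at -1.62, Junb at -1.48, Egr1 at -0.76, Klf10 at -0.37 and Dusp1 at -1.003 (adjusted p = 0.0304, 0.0331, 0.0247, 0.0324 and 0.0331 in limma), all of them lower. In that fit 0.647% of tested genes passed as lower. These weights gave WT replicate 1 a weight of 5.75 and the other libraries 0.52 to 1.15; WT replicate 1 was also the library in which most early genes were highest. Without WT replicate 1 the early median was -0.28, with 19 of 21 lower. Without WT replicate 3 Junb was the only member to pass (-1.40, adjusted p = 0.0444 in limma), where 0.0517% of tested genes passed as lower.

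**Figure D5:**
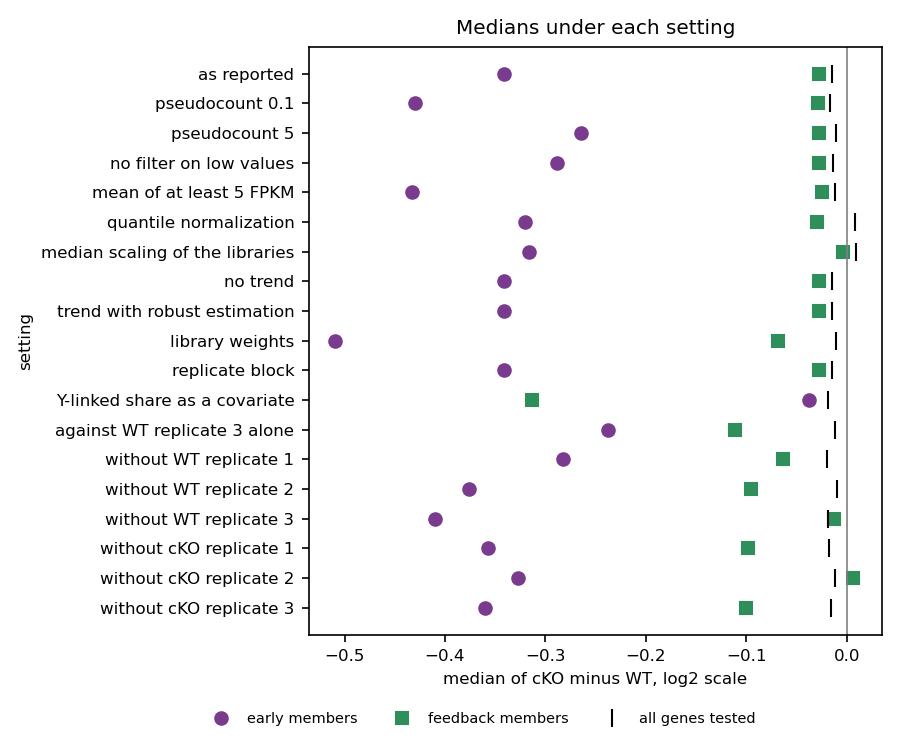
Median difference (log2 scale) over the early members (circles), the feedback members (squares) and all tested genes (ticks), as reported and under each alternative. The early median lies between -0.51 and -0.24 in every setting except the Y-linked covariate. There it is -0.038 and the feedback median is -0.31, with the adjustment resting mostly on WT replicate 3.

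Upstream, of 34 receptor, adaptor, Ras, Raf, MEK, ERK and RSK genes tested, 20 were lower and 14 higher, with a median of -0.028, and none passed. Of all tested genes 55.5% were lower, with a median of -0.015. At an unadjusted p under 0.05 there was 1 lower and 1 higher gene, against 7.82% lower and 4.44% higher of all tested genes. Rps6ka1, which codes for the ERK-activated kinase RSK1, had WT values of 48.3, 38.4 and 43.5 FPKM, against 31.8, 35.6 and 35.5 FPKM under the cKO label (difference -0.33, adjusted p = 0.235 in limma). Fgfr3, an FGF receptor, was higher in each library labelled cKO, with means of 55.8 and 65.4 FPKM (adjusted p = 0.243 in limma).

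Of 15 regulators that act on early genes, such as Srf, Elk1, Creb1 and Cic, 12 were lower, against 55.5% of all tested genes. Their median was -0.030, and that of all tested genes -0.015. Erf, an ETS repressor that ERK exports from the nucleus, averaged 39.0 and 31.6 FPKM (adjusted p = 0.257 in limma), and Elk3, a ternary complex factor, 10.8 and 9.24 FPKM (adjusted p = 0.407 in limma).

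Other early genes outside the list were also counted. Of 39 further names 38 were in the table and 32 were tested. Among these 23 were lower and 9 higher, against 55.5% lower of all tested genes, with a median of -0.083. At an unadjusted p under 0.05, 3 of 32 were lower and 0 higher, near the 7.82% lower of all tested genes. Ier5l, a relative of Ier5, had WT values of 12.6, 11.9 and 9.66 FPKM, against 6.47, 8.06 and 6.69 FPKM under the cKO label (difference -0.62, adjusted p = 0.156 in limma). Zfp36l2, the third tristetraprolin relative, had WT values of 60.5, 57.2 and 47.8 FPKM, against 39.3, 43.4 and 40.5 FPKM under the cKO label (difference -0.41, adjusted p = 0.194 in limma). Neither gene had overlapping groups. They were the 2 of 32 with every value lower under the cKO label, against 10.2% of tested genes. Another 2 of the 32 had every value higher, against 7.07% of tested genes.

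Further MAPK feedback genes had 10 of 14 tested members lower, against 55.5% of all tested genes, and a median of -0.12. Dusp10, a phosphatase of p38 and JNK, averaged 3.41 and 2.34 FPKM (adjusted p = 0.303 in limma), and Ccnd1, the G1 cyclin that sustained ERK activity induces, 303 and 238 FPKM (adjusted p = 0.372 in limma). Targets of YAP-TEAD and of SRF with its MRTF cofactors were lower in 6 and higher in 8 of 14 tested, with a median of 0.039. Tead1 averaged 24.5 and 21.2 FPKM and Amotl2 4.53 and 5.65 FPKM, each without overlap and in opposite directions (adjusted p = 0.294 and 0.297 in limma). Heat shock genes, which respond to dissociation and handling as many early genes do, were lower in 3 and higher in 5 of 8 tested, with a median of 0.012. Their differences ran from -0.11 for Dnajb1 to 0.11 for Dnaja1. No gene of these further lists passed in limma over all genes as reported. With library weights 3 of the 12 genes named from them passed: Rps6ka1 at -0.43, Ier5l at -0.72 and Zfp36l2 at -0.51 (adjusted p = 0.0451, 0.0247 and 0.0331 in limma). In that fit 0.647% of tested genes passed as lower. Those 12 genes were chosen for their low p in these same libraries, so the count is not independent support.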

How the data were processed

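Total RNA of the 6 libraries was sequenced, and the BGISEQ institute assembled and analysed the data, per the labels. What the authors deposited are FPKM values, per the file headers. The submitters' processing notes name Bowtie2 and GRCm38 (mm10). How fragments were counted, on which annotation and with which filters, is not stated, so reads of overlapping genes cannot be told apart. FPKM carries no read total. Steps of 1 fragment, searched in 22 to 25 low values per library, fitted best at depths of 16450000 to 16900000, but only 43.5% to 60.9% of the values came out whole within 0.1 fragment. Read counts were therefore not rebuilt, and count tests were left out.

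Values were analysed as log2(FPKM + 1), which understates changes of low genes, for the 11596 genes averaging 1 FPKM or more. The comparison used limma 3.58.1 (R 4.3.3; moderated by eBayes, trend on intensity). Tests are two-sided, and p-values are Benjamini-Hochberg adjusted over all tested genes. The fit was tested on simulated data for these genes, with 200 of them changed in each of 20 runs. It recovered 71.9% at 1.5-fold and 91.3% at 2-fold, with 8.35 false calls per run. Changes were planted in FPKM + 1, with independent noise per gene and no Y-linked or other difference shared within a library. The recovered shares are therefore not a detection rate for the data here. The members and gene lists were chosen with earlier results of these data known, so lower early genes are not independent support here. In each role list the 3 members of lowest p and the most abundant are given in every library, and further members by their means or range. Fosl2, Myc, Zfp36, Ccn1 and Fosb were given in more detail after their values were seen. In each further list the genes named are the 2 of lowest p. The glial markers Gjb6, S100b, Aqp4, Aldh1l1, Mog, Mbp and Pdgfra were named after their values were seen. Motif searches used RefSeq promoters. Gene spans came from RefSeq, and exons and 3′ UTRs from GENCODE M21 transcripts with the longest coding sequence. Alternatives were other pseudocounts (0.1 and 5), filters, scalings, variance models, library weights, a replicate block, a Y-linked covariate and leaving out libraries.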

Additional observations from a re-analysis of the deposited data

How the results depend on the processing

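The count of genes past the threshold was 3 as reported and varied over 18 alternatives. It was 0 without a filter, with quantile normalization, without the trend and with the Y-linked covariate. It was 129 with library weights, 22 with a replicate block and 0 to 10 without 1 library. Early members past the threshold were 0 as reported, 5 with library weights, 3 with a replicate block and 0 to 1 without 1 library. Feedback members were 0 throughout. The early median moved to -0.51 with library weights and -0.038 with the Y-linked covariate, and ran from -0.41 to -0.28 without 1 library. The feedback median moved to -0.31 with that covariate and -0.11 against WT replicate 3 alone, and ran from -0.10 to 0.0063 without 1 library. The cause of these shifts was not tested.

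Signs turned for 19 of the 32 tested members, 12 early and 7 feedback. With the Y-linked covariate the values that turned were Fosl2 1.96, Junb 0.33, Atf3 0.60, Klf6 -0.19, Nr4a1 0.18, Csrnp1 0.18, Ier3 0.38, Btg2 0.091, Zfp36 0.069, Zfp36l1 0.55, Ccn1 0.63, Dusp4 0.059, Etv5 -0.33, Zfp36l2 0.054, Amotl2 -0.013 and Dnaja1 -0.12. Against WT replicate 3 alone they were Fosl2 0.28, Atf3 0.18, Klf6 -0.035 and Etv5 -0.060. With library weights they were Klf6 -0.056, Etv1 0.053 and Etv5 -0.0037. With quantile normalization Spry4 was at 0.0033 and Etv1 at 0.0044, and with median scaling Dusp6 was at 0.0036, Spry4 at 0.0097 and Etv1 at 0.0050. Leaving out 1 library gave ranges across 0 for Myc (-0.19 to 0.078), Klf6 (-0.051 to 0.11), Ier5 (-0.13 to 0.056), Dusp6 (-0.14 to 0.087), Spry1 (-0.21 to 0.013), Spry2 (-0.092 to 0.0050), Spry4 (-0.099 to 0.068), Etv1 (-0.065 to 0.026) and Etv5 (-0.055 to 0.17).

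The groups share replicate numbers, but nothing in the labels ties equal numbers together. Deviations of equal numbers from their group means correlated at -0.043, 0.30 and 0.26, and those of unequal numbers at -0.40 to 0.17. WT replicate 1 correlated best with cKO replicate 2 (0.12). Replicates 2 and 3 thus matched best by number and replicate 1 did not. Whether the numbers are pairs is not settled, and the fit as reported did not pair them. With the number as a replicate block 22 genes passed, among them 3 early members: Junb, Egr1 and Dusp1 (adjusted p = 0.0396, 0.0352 and 0.0418 in limma).

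FPKM without read totals gives no counting error, so the precision of low members such as Fosb or Dusp5 rests on the spread between libraries.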
